A study of Mus musculus with 4 samples.

Results

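Glycogen is the branched glucose polymer in which animal cells store glucose, and 9 genes of its synthesis, breakdown and control are described here, out of 50600 genes in the count table. They were chosen by symbol: Ppp1r3b, Ppp1r3c and Ppp1r3d, which encode glycogen-targeting subunits of protein phosphatase 1 (PP1); Ugp2, Gyg, Gys1 and Gbe1, which encode enzymes of synthesis; and Pygb and Pygl, which encode glycogen phosphorylases. The choice was made knowing that Ppp1r3b was lower in the knockout, so the differences between genotypes in these 9 genes are given as a description. Their intervals and calls come from the fit over all genes and are not used as support. RNA was sequenced from primary epithelial cells of the colon of C57BL/6 mice, with 2 libraries from Mettl14 knockout (KO) mice and 2 from wild-type (WT) mice. Mettl14 encodes a subunit of the enzyme complex that methylates adenosines in mRNA (m6A). All 4 sample titles share the code 2W, which the labels do not explain as an age or a time. The labels do not state the promoter or recombinase behind the deletion, or whether a library pooled several animals. Xist and 4 Y-linked genes placed 1 male and 1 female library in each genotype.

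Glycogen synthesis starts from UDP-glucose, which is added to the primer protein glycogenin and extended by glycogen synthase, while a branching enzyme introduces side chains. Glycogen phosphorylase releases glucose 1-phosphate from the chain ends. PP1 dephosphorylates both synthase and phosphorylase, which activates the first and inactivates the second, and the PPP1R3 subunits hold PP1 on the glycogen particle. The proteins of Ppp1r3b and Pygl are best known from liver, which exports glucose from its glycogen.

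Library totals ran from 22136440 to 24991060 counts, and values are CPM (counts scaled to the library total) after trimmed mean of M-values (TMM) scaling unless stated otherwise. Mettl14 itself had 3.99 and 3.94 CPM in KO, against 11.7 and 8.67 CPM in WT. Its log2 fold change was -1.36 (edgeR adjusted p = 0.05035), so it fell just short of the threshold of 0.05 used below. Of 7 epithelial markers none was at 0, and together they held 6147 and 5581 CPM in the KO libraries, against 6467 and 8255 CPM in the WT libraries. Over all genes, 14861 passed a filter on low counts, and edgeR called 255 higher (1.72% of those tested) and 282 lower (1.90%) in KO, with a threshold of 0.05 on the adjusted p. Among the 9 genes, 8 passed the filter and Ppp1r3c did not. In the same contrast that chose the list, Pygl lay past the threshold on the higher side and Ppp1r3b on the lower side, against a background of 3.61% of all tested genes called. Without KO replicate 1, and likewise without KO replicate 2, edgeR called 0 genes of the table and so neither of these; the calls were 529 higher and 719 lower in the absence of WT replicate 1, and 1271 and 1019 in the absence of WT replicate 2, both genes among them each time. In 5 of the 8 the libraries of the genotypes did not overlap, 2 higher and 3 lower in KO, where 63.3% of all tested genes showed no overlap (31.1% higher and 32.2% lower). The 5 of 8 is near that background, and nothing is read from it.

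Promoter sequences are shown for 4 of the genes, the 2 phosphorylases because one stood higher in KO and the other did not, and the 2 synthesis enzymes that stood lower in KO. Each runs from 250 bases before to 50 bases after a RefSeq transcript start in GRCm38.p6, written 5′ to 3′ on the gene's strand. Capitals mark ACGTG (the common core of the hypoxia response element), GGGCGG (a GC box) and CCAAT, on either strand. The Pygl promoter is chr12:70227634-70227933 (minus strand), that of Pygb is chr2:150786546-150786845 (plus strand), that of Gbe1 is chr16:70313699-70313998 (plus strand), and that of Ugp2 is chr11:21371218-21371517 (minus strand), the upstream one of 2 listed for that gene. The Pygl window lies inside the annotated gene, downstream of its outermost start at 70231488. Sequence at other starts of Pygl, which has 6 annotated transcripts, is not shown.
Pygl: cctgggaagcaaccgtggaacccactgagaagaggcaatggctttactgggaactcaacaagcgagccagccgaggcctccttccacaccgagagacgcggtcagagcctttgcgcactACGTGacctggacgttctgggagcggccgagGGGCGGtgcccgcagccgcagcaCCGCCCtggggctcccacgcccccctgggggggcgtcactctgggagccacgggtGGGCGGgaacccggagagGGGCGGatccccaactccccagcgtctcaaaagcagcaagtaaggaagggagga
Pygb: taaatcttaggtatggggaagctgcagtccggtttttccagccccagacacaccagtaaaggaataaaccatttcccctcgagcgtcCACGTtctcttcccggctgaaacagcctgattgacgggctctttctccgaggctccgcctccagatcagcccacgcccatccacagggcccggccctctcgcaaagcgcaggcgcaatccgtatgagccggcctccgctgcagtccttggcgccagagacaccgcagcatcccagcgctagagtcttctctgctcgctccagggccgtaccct
Gbe1: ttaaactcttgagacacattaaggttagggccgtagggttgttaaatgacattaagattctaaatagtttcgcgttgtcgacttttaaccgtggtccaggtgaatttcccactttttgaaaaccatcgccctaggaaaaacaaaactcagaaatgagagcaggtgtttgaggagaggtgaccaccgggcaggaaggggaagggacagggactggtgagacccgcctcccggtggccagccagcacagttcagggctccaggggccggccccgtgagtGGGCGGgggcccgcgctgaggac
Ugp2: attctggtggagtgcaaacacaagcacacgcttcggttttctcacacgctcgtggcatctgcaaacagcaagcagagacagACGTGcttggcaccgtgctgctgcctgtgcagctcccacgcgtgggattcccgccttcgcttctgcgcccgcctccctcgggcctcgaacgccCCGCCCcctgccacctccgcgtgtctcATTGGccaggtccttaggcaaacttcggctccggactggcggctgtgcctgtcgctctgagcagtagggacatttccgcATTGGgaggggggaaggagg

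The Pygl sequence above holds 4 GC boxes and 1 ACGTG, whereas the Pygb sequence holds 0 GC boxes and 1 ACGTG. The Gbe1 sequence holds 1 GC box, and the Ugp2 sequence holds 1 GC box, 1 ACGTG and 2 CCAAT. Over the 9 promoters listed for 8 of the genes, with Ppp1r3b not in the table, GGGCGG was in 7, ACGTG in 6, CACGTG (an E-box, which contains ACGTG) in 3, CCAAT in 3, and TGACGTCA (the cAMP response element) and TATAAA in 0. Of all 32851 promoters of this length, 35.7% held GGGCGG, 19.6% ACGTG, 7.15% CACGTG, 37.4% CCAAT, 1.79% TGACGTCA and 13.6% TATAAA. The members' promoters were 54.3% to 77.0% G and C, against a median of 52.7% over all promoters. These are matches of letters in a fixed window, and no binding was measured.

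Ppp1r3b (ENSMUSG00000046794, GRCm38 chromosome 8, 35375739 to 35388139, plus strand), the targeting subunit best known from liver, had 1175 and 1581 counts in KO replicates 1 and 2, against 4639 and 3842 counts in WT replicates 1 and 2. After scaling this was 52.1 and 61.6 CPM in KO and 224 and 162 CPM in WT. Both KO libraries stood far below both WT libraries, and the gap between genotypes exceeded the gap within either. The mean was 56.9 ± 6.73 CPM in KO and 193 ± 43.7 CPM in WT (SD, n = 2 each), a log2 fold change of -1.76 (SE 0.21, 95% interval -2.30 to -1.22), or 3.39-fold lower in KO. Of all tested genes, 1.10% had a lower log2 fold change.

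The log2 difference of Ppp1r3b was -1.86 between the male libraries and -1.63 between the female ones, 1 library against 1 each time. As the genotypes did not overlap, both values had to be negative, and they are no support for a difference. The log2 fold change of Ppp1r3b ran from -1.94 to -1.52 over 11 other ways of processing the counts. The smaller end was without WT replicate 1 and the larger end without WT replicate 2. Markers of absorptive colonocytes, the surface cells that take up salt and water, were also lower in KO: the 6 together held 1528 and 1625 CPM in KO, against 3045 and 2570 CPM in WT. Of these 6, Aqp8 was called lower by edgeR and 5 were not called, where 1.90% of all tested genes were called lower. The summed epithelial and goblet cell markers were likewise lower in both KO libraries than in either WT library. The part of these cells in the Ppp1r3b difference was not tested, and in bulk RNA fewer cells of a type and less RNA per cell cannot be told apart.

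The other targeting subunits among the described genes were scarce. Ppp1r3d (chromosome 2, 178411206 to 178414472, minus strand) had 62 and 84 counts in KO and 79 and 52 counts in WT, or 2.75 and 3.27 CPM in KO and 3.81 and 2.19 CPM in WT. The genotypes overlapped, and the log2 fold change was 0.01 with an interval from -0.94 to 0.96, which covers differences of nearly 2-fold in both directions. Ppp1r3c (chromosome 19, 36731731 to 36736653, minus strand), whose product is also called protein targeting to glycogen, had 4 and 8 counts in KO and 1 and 5 in WT. Its summed count was 12 in KO, with an exact 95% Poisson interval of 6.20 to 21.0, and 6 in WT, with an interval of 2.20 to 13.1. These intervals cover counting error only and overlap, so no difference was detectable at this depth.

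Per kilobase of exon, Ppp1r3b was thus the main transcript of the 3. It made up 90.2% and 89.9% of their summed counts per kilobase in KO and 96.8% and 97.2% in WT. Ppp1r3d took 9.06% and 9.09% in KO and 3.14% and 2.50% in WT, and Ppp1r3c 0.701% and 1.04% in KO and 0.0476% and 0.289% in WT. These shares depend on the length used: Ppp1r3d averaged 9.07% in KO and 2.82% in WT over the union of exons, 6.59% in KO and 2.01% in WT with the longest transcript, and 5.008% in KO and 1.504% in WT of the counts without a length. The larger share of Ppp1r3d in KO came with a level per kilobase of 0.922 ± 0.113 CPM per kb in KO and 0.917 ± 0.350 in WT (SD, n = 2 each), while that of Ppp1r3b was 9.15 ± 1.08 CPM per kb in KO and 31.0 ± 7.03 in WT. Ppp1r3e and Ppp1r3f, targeting subunits outside the described genes, are not in these shares. Ppp1r3e averaged 1.33 CPM per kb in KO and 1.70 in WT, and Ppp1r3f 0.142 in KO and 0.127 in WT.

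**Figure D1:**
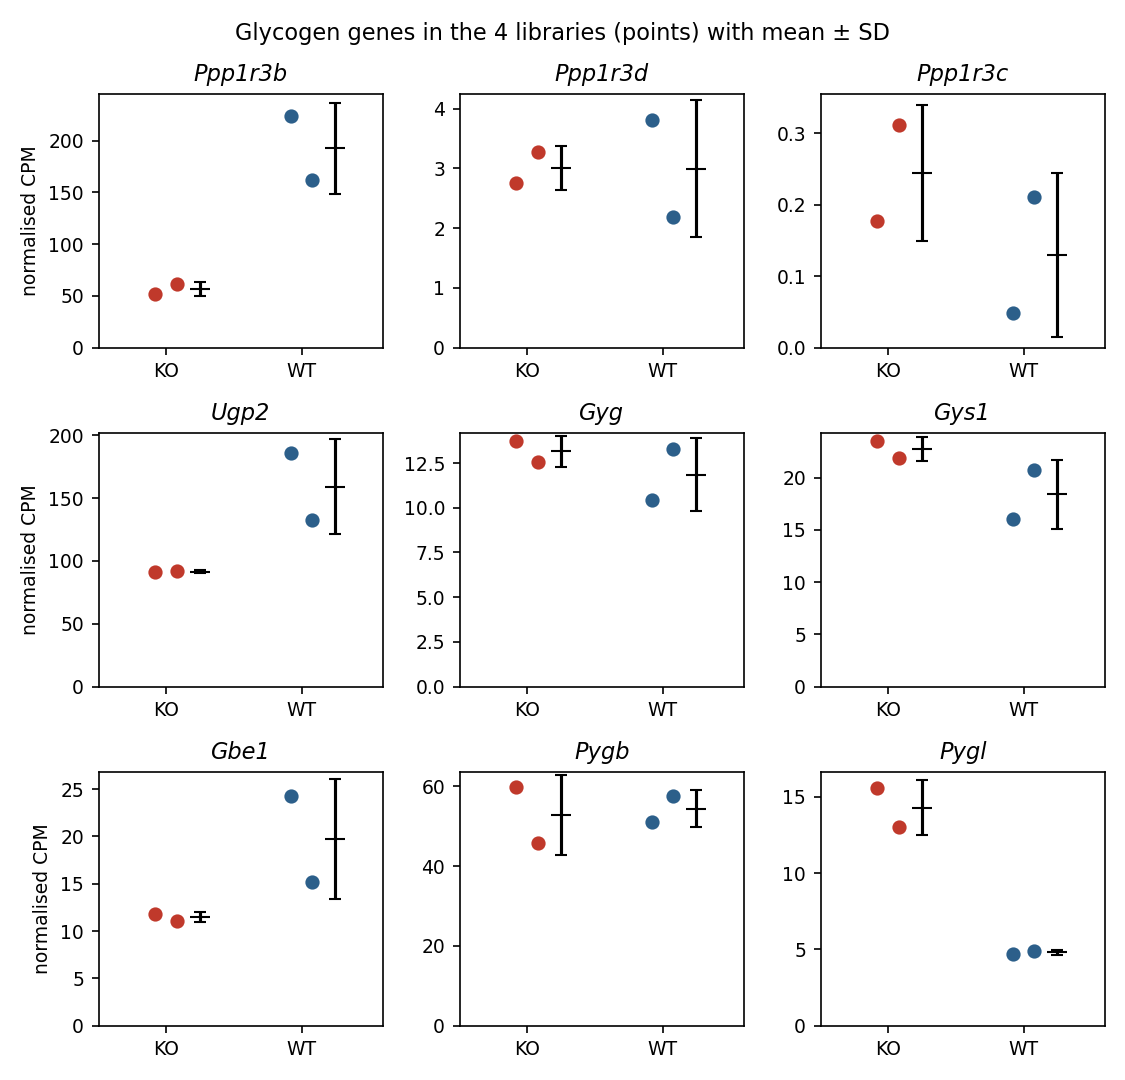
Normalised CPM of the 9 glycogen genes (vertical axes, each from 0) in KO and WT libraries (1 point a library; bars are mean ± SD, n = 2). The libraries stand apart most widely in Ppp1r3b, at 52.1 and 61.6 CPM in KO against 224 and 162 CPM in WT, and in Pygl, at 15.6 and 13.0 CPM in KO against 4.67 and 4.92 CPM in WT.

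Among the synthesis enzymes, Ugp2 and Gbe1 stood lower in KO, with intervals below 0, and the intervals of Gyg and Gys1 held 0. These intervals are not adjusted for the number of genes. An unadjusted edgeR p under 0.05 was common: 15.7% of all tested genes had one on the lower side and 14.8% on the higher side. The split between these enzymes is therefore a description only. Ugp2 (chromosome 11, 21321138 to 21371201, minus strand) encodes the pyrophosphorylase that makes UDP-glucose, which is also the donor for UDP-glucuronate and for UDP-galactose. It had 90.99 and 92.2 CPM in KO, against 186 and 132 CPM in WT. The 2 KO libraries were nearly equal, and both lay below the lower WT library. The log2 fold change was -0.80 (SE 0.19, interval -1.30 to -0.29), and -0.54 without WT replicate 1. Between the male libraries the log2 difference was -1.01, and between the female ones -0.54, 1 library against 1, with signs fixed by the lack of overlap. Its promoters are listed at 2 starts, and the counts are per gene, so transcripts from the 2 starts were not separated.

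Gbe1 (chromosome 16, 70313949 to 70569716, plus strand), the branching enzyme, had 11.8 and 11.1 CPM in KO, against 24.2 and 15.2 CPM in WT. The genotypes did not overlap, but WT replicate 1 was much higher than WT replicate 2. The log2 fold change of -0.78 (SE 0.25, interval -1.44 to -0.13) was -0.42 without WT replicate 1 and -1.05 without WT replicate 2. Gbe1 and Ugp2 fell short of the edgeR threshold over the 4 libraries. Ugp2 was past it in 4 of 11 alternatives, among them the fit with a covariate for sex (log2 fold change -0.78), and Gbe1 in 1, without WT replicate 2.

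Gys1 (chromosome 7, 45434844 to 45456619, plus strand), the glycogen synthase of tissues other than liver, had 23.5 and 21.9 CPM in KO, against 16.1 and 20.7 CPM in WT. The KO libraries lay above the WT libraries by a small margin, with a log2 fold change of 0.30 (SE 0.16, interval -0.13 to 0.73) that was 0.12 without WT replicate 1 and 0.53 without WT replicate 2. Its exons share 310 bases, 6.47% of its exon length, with Ruvbl2 on the opposite strand, and whether the counting used strand is not given in the sources used here. The liver form of glycogen synthase, Gys2, had 0 counts in all 4 libraries, where a count of 0 allows up to 0.120 to 0.136 CPM. Gyg (chromosome 3, 20122084 to 20155317, minus strand), which encodes glycogenin, had 13.7 and 12.5 CPM in KO and 10.4 and 13.3 CPM in WT. The genotypes overlapped, with a log2 fold change of 0.15 (interval -0.31 to 0.61).

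The phosphorylase genes differed from each other. Pygl (chromosome 12, 70190811 to 70231488, minus strand), the form best known from liver, had 351 and 334 counts in KO, against 97 and 117 counts in WT, or 15.6 and 13.0 CPM in KO and 4.67 and 4.92 CPM in WT. All KO values were over the WT values by a margin far wider than the spread within a genotype. The mean was 14.3 ± 1.80 CPM in KO and 4.80 ± 0.177 CPM in WT (SD, n = 2 each), a log2 fold change of 1.57 (SE 0.17, interval 1.12 to 2.02), or 2.97-fold higher in KO. It was 1.43 to 1.73 over the 11 alternatives. The log2 difference was 1.47 between the male libraries and 1.66 between the female ones, 1 library against 1 each time. Without overlap between the genotypes, both had to be positive.

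Pygb (chromosome 2, 150786735 to 150831758, plus strand), the form named for brain and expressed in many tissues, had 59.8 and 45.7 CPM in KO and 51.0 and 57.6 CPM in WT. Its genotypes overlapped, with a log2 fold change of -0.04 (SE 0.17, interval -0.47 to 0.39). The muscle form, Pygm, had 1.15 and 1.25 CPM in KO and 0.771 and 0.884 CPM in WT and was not called. Pygb was the more abundant transcript in every library. Pygl took 15.4% and 16.6% of the summed counts per kilobase of Pygb and Pygl in KO, against 6.00% and 5.62% in WT. The size of these shares depends on the gene length used: with the longest annotated transcript Pygb held a mean of 74.7% in KO and 90.1% in WT, against 84.0% in KO and 94.2% in WT over the union of exons.

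**Figure D2:**
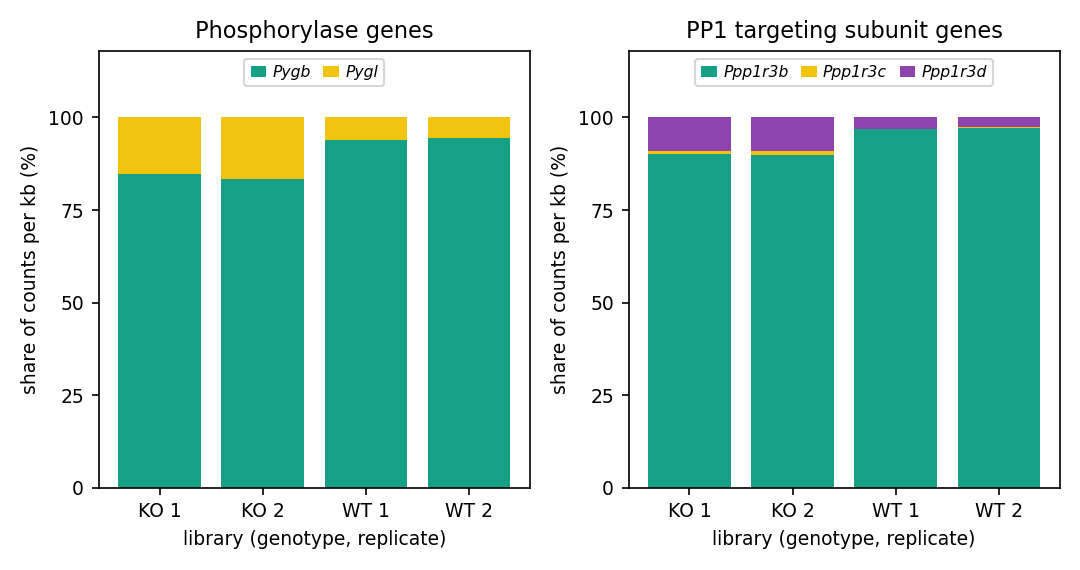
Share of each gene in the summed counts per kilobase of exon (vertical axes, %) of the 2 described phosphorylase genes and of the 3 described genes of PP1 targeting subunits, 1 bar a library. Pygl holds 15.4% and 16.6% in KO and 6.00% and 5.62% in WT, and Ppp1r3b holds 90.2% and 89.9% in KO and 96.8% and 97.2% in WT.

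Pygl is also expressed by neutrophils and macrophages, so the markers of these cells are given beside it. The 8 macrophage and monocyte markers together held 204 and 169 CPM in KO, against 74.0 and 123 CPM in WT, with 2 of 8 called higher by edgeR and none at 0. The 8 neutrophil markers held 168 and 122 CPM in KO and 49.2 and 157 CPM in WT, with 1 of 8 called higher and none at 0. The neutrophil markers overlapped between genotypes and the macrophage and monocyte markers did not. The epithelial, absorptive colonocyte, goblet cell, muscle, endothelium and hepatocyte lists did not overlap either, so this is not particular to macrophages. Of single tested genes, 63.3% showed no overlap and edgeR called 1.72% higher. The part of neutrophils or macrophages in the Pygl difference was not tested. Erythroid markers held 1353 and 6681 CPM in KO and 1976 and 2736 CPM in WT. Fibroblast markers held 64.2 and 554 CPM in KO and 52.1 and 74.5 CPM in WT, so both lists were highest in KO replicate 2. Hepatocyte markers held 181 and 145 CPM in KO and 140 and 138 CPM in WT, with Cyp2e1 at 0 in all 4 libraries. Of these 5 markers, among them the apolipoprotein genes Apoa1 and Apob, 3 were tested. Which cells their counts came from was not tested. Muscle markers held 14.0 and 31.8 CPM in KO and 9.06 and 13.1 CPM in WT, and those of B and T cells 55.3 and 38.9 CPM in KO and 27.2 and 46.5 CPM in WT. Goblet cell markers held 8641 and 7618 CPM in KO and 8725 and 11860 CPM in WT, and those of endothelium 10.4 and 7.87 CPM in KO and 4.96 and 7.28 CPM in WT.

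Ordered by level per kilobase in WT, Ugp2 was first (51.8 ± 12.4 CPM per kb), then Ppp1r3b (31.0 ± 7.03), Pygb (11.3 ± 0.969), Gyg (5.06 ± 0.872), Gys1 (3.85 ± 0.688), Gbe1 (3.69 ± 1.19), Ppp1r3d (0.917 ± 0.350), Pygl (0.696 ± 0.0257) and Ppp1r3c (0.0474 ± 0.0421; SD, n = 2 throughout). In WT the libraries overlapped between Gys1 and Gbe1 and between Ppp1r3d and Pygl, and not between the other neighbours. In KO the order was Ugp2 (29.8 ± 0.280 CPM per kb), Pygb (10.96 ± 2.07), Ppp1r3b (9.15 ± 1.08), Gyg (5.61 ± 0.361), Gys1 (4.75 ± 0.243), Gbe1 (2.14 ± 0.102), Pygl (2.07 ± 0.261), Ppp1r3d (0.922 ± 0.113) and Ppp1r3c (0.0897 ± 0.0349). There Pygb and Ppp1r3b overlapped, as did Gbe1 and Pygl. In WT, 93.0% of the tested genes had a lower level per kilobase than Ppp1r3b and 23.5% a lower level than Pygl.

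**Figure D3:**
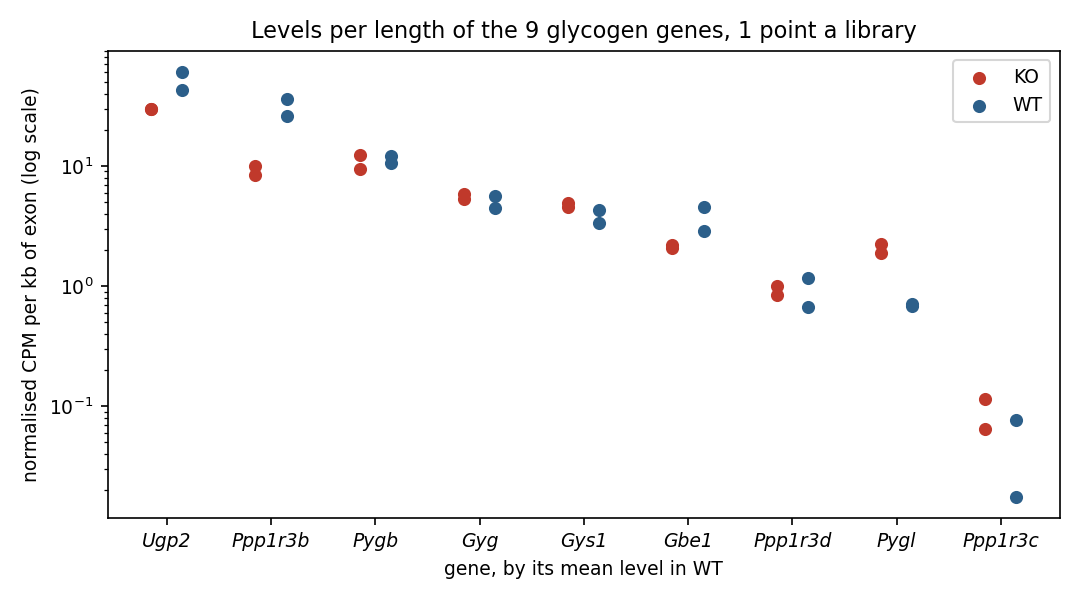
Normalised CPM per kilobase of exon (vertical axis, log scale) of the 9 genes, ordered by their mean in WT, with 1 point a library and KO to the left of WT. Ppp1r3b is at 9.15 CPM per kb in KO and 31.0 in WT, and Pygl is at 2.07 in KO and 0.696 in WT.

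The wider pathway was read from 45 further genes listed by function, of which 37 were tested. By edgeR 0 were called higher and 0 lower, against 1.72% and 1.90% of all tested genes. At an unadjusted p under 0.05, 1 was higher and 7 were lower, against 14.8% and 15.7% of all genes, and DESeq2 called 0 higher and 1 lower, against 6.94% and 7.11% of all genes to which it gave an adjusted p. The median log2 fold change of these 37 was -0.17, against -0.01 over all tested genes, with values from -0.74 to 0.57.

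Of 3 further synthesis genes tested, all phosphoglucomutases or their relative, none was called. Pgm2 had 74.4 ± 3.26 CPM in KO and 104 ± 16.6 CPM in WT, a log2 fold change of -0.48 (edgeR adjusted p = 0.117). Pgm1 was at -0.22 (adjusted p = 0.558) and Pgm2l1 at -0.74 (adjusted p = 0.101). Of 7 further breakdown genes none was called. Phkb, the regulatory beta subunit of phosphorylase kinase, which phosphorylates and activates phosphorylase, had 16.1 ± 0.323 CPM in KO and 25.1 ± 0.996 CPM in WT (SD, n = 2 each). Its log2 fold change was -0.64 (edgeR adjusted p = 0.0532), and it was called lower in 4 of 11 alternatives, namely DESeq2, no filter, no WT replicate 2, and a covariate for sex. Gaa, the lysosomal glucosidase that degrades glycogen, was at 0.32 (adjusted p = 0.116), and Phkg2, a catalytic subunit of phosphorylase kinase, at 0.11 (adjusted p = 0.576).

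Around the targeting subunits, 8 further genes were tested and none was called. The PP1 catalytic subunit genes had log2 fold changes of -0.15 (Ppp1ca, edgeR adjusted p = 0.417), -0.17 (Ppp1cb, adjusted p = 0.363) and -0.25 (Ppp1cc, adjusted p = 0.191). Ppp1ca averaged 112 ± 6.17 CPM in KO and 125 ± 6.32 CPM in WT (SD, n = 2 each). Among 11 kinase genes that act on glycogen synthase none was called. The most abundant were Prkab1, a subunit of AMP-activated protein kinase (-0.24, edgeR adjusted p = 0.270), Csnk2a1, a casein kinase 2 subunit (-0.46, adjusted p = 0.0712), and Prkaa2 (0.20, adjusted p = 0.416).

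**Figure D4:**
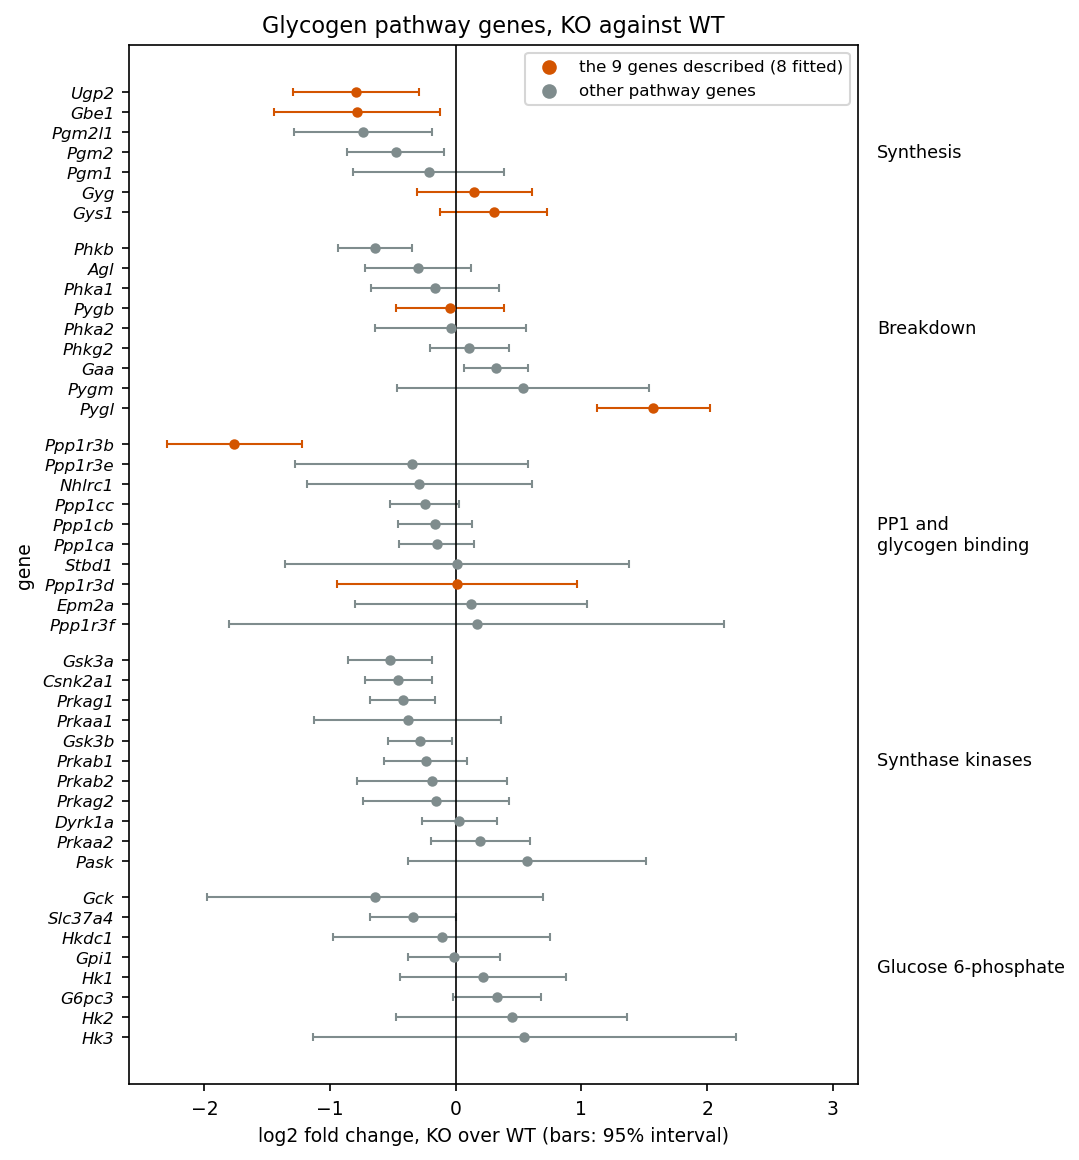
Log2 fold change, KO over WT (horizontal axis), with 95% intervals from the edgeR fit over 4 libraries, for the tested genes of 5 functional lists, the described genes in orange. Ppp1r3b is at -1.76, Pygl at 1.57, Ugp2 at -0.80 and Gbe1 at -0.78, and the other pathway genes ran from -0.74 to 0.57. The list was chosen knowing that Ppp1r3b was lower, so its place outside that range is a description only.

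Ppp1r3b was compared with 9732 other genes with a mean of at least 5 CPM, leaving out symbols of predicted genes and clones. Of these, the 3 whose levels followed Ppp1r3b most closely were Kifc2, a kinesin, Mep1a, a brush-border metalloprotease subunit, and Il15, a cytokine. Likeness was measured as the distance between log2 CPM deviations from each gene's own mean over the 4 libraries, which was 0.15, 0.18 and 0.20. Ppp1r3b deviated by -0.99 and -0.75 in KO and 1.11 and 0.64 in WT, and Kifc2 by -1.01 and -0.64 in KO and 1.01 and 0.65 in WT. With 4 libraries, many genes follow the same order, and the ranking is a description.

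GGACT, a common form of the sequence that the m6A enzyme complex methylates, was counted on the sense strand of the longest protein-coding transcript of each tested gene. Ppp1r3b held 3 sites (0.684 per kb), Ugp2 1 (0.373 per kb), Pygl 5 (1.67 per kb), Pygb 11 (2.81 per kb) and Gbe1 8 (2.42 per kb). The median over 13532 transcripts was 1.05 sites per kb, and 92.6% held at least 1. Of those transcripts, 26.9% had a lower density than Ppp1r3b, 11.9% than Ugp2, 79.9% than Pygl, 94.4% than Gbe1 and 97.02% than Pygb. Ppp1r3d (0.612 per kb), Gyg (1.04 per kb) and Gys1 (1.36 per kb) lay between Ugp2 and Pygb. Methylation itself was not measured in these libraries.

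**Figure D5:**
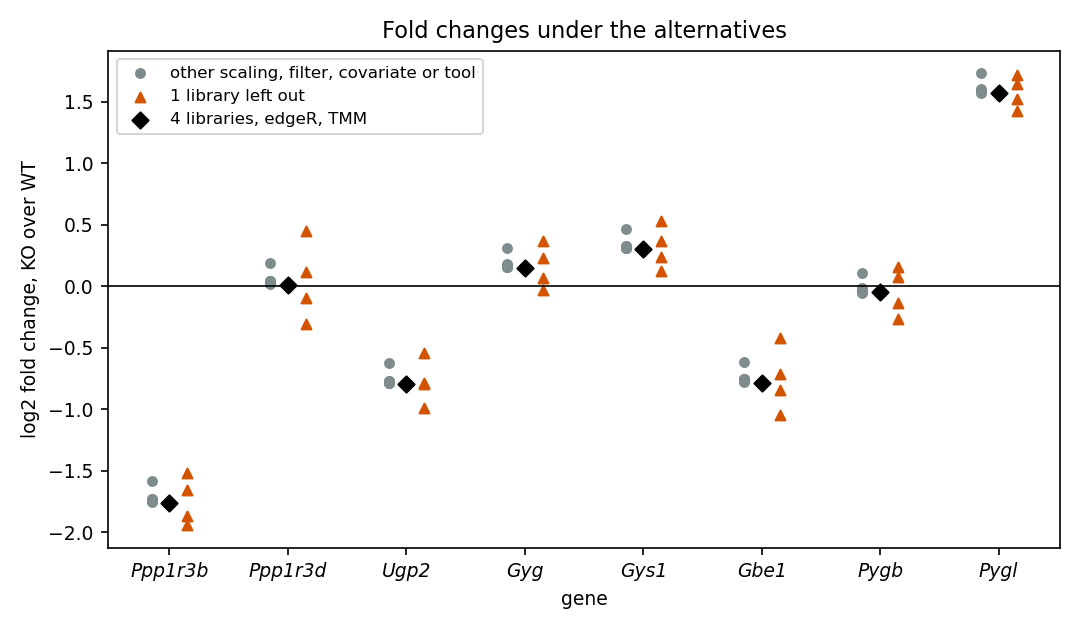
Log2 fold change, KO over WT (vertical axis), of the 8 tested genes over the 4 libraries (diamonds), with 7 other scalings, filters, covariates or tools (circles) and with 1 library left out (triangles). Ppp1r3b runs from -1.94 to -1.52 and Pygl from 1.43 to 1.73, whereas Ppp1r3d, Pygb and Gyg lie on both sides of 0.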

How the data were processed

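RNA was selected with oligo-dT beads, per the labels' protocols. The build mm10 and the tools RSEM 1.2.29, STAR 2.4.2a and FastQC 0.11.2 appear in the submitters' processing notes, with no role given. The authors deposited counts in whole numbers for each gene, without normalisation, as judged from library totals that differ. The sources used here do not give the annotation release, the strandedness or any rounding. Of the gene identifiers, 99.56% matched GENCODE M21 (GRCm38), which gave coordinates (1-based) and exon lengths.

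Computed here were filterByExpr, TMM factors and the quasi-likelihood test of edgeR (4.0.16, robust, with its legacy option, under R 4.3.3), two-sided, with Benjamini-Hochberg adjustment over 14861 genes and a threshold of 0.05. Intervals are 95%. Log2 CPM used an offset of 0.5. The fit was checked on simulated counts for the sign and size of known changes, which does not check its p-values. Alternatives were relative log expression factors, library size, DESeq2 1.42.0, 2 other filters, leaving out the 10 most abundant and the mitochondrial genes, sex as a covariate, and each library left out. Groups follow the genotype label, and replicate numbers follow accession order. Sex differed within each genotype, so its libraries hold different animals, though the labels do not say so or whether a library pooled several. With 2 libraries a genotype, a p-value covers the spread between these libraries only. The genes and lists were chosen with earlier results of these data known. Named genes are the 9, Mettl14, every called gene among the other pathway genes and the 3 most abundant uncalled ones of each list, and the 3 nearest patterns to Ppp1r3b. Other genes named were chosen after their values were seen. Promoters are from RefSeq (GRCm38.p6), matched by symbol for 8 of 9 genes. No column was left without a sample.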

Additional observations from a re-analysis of the deposited data

How the results depend on the processing

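Over all genes, 255 were called higher and 282 lower, all near the threshold. These counts were 604 and 186 with library size only, 952 and 975 with DESeq2, 862 and 770 with no filter, and 696 and 713 with sex as a covariate. With 1 library left out they ran from 0 to 1271 higher and from 0 to 1019 lower; both were 0 without either KO library, where edgeR gave 1010 to 1219 genes higher and 977 to 1038 lower with an unadjusted p under 0.05. With any library left out, the lone library of its genotype is assumed to vary like the others, which holds for the fits without a WT library too. Library size scaling made 76.5% of calls higher, against 47.5% with TMM, and shifted the median log2 fold change of all genes to 0.15; relative to it Ppp1r3b was at -1.74 and Pygl at 1.58. Ppp1r3b and Pygl stayed past the threshold in 9 of 11 alternatives, those that made any call, and were not past it without KO replicate 1 and without KO replicate 2. The genes were chosen with this contrast known, so these outcomes describe the processing and are no support for a difference. The sign held in all 11 alternatives for Ppp1r3b, Pygl, Ugp2, Gbe1 and Gys1; it turned in 2 for Ppp1r3d, in 3 for Pygb and in 1 for Gyg. Of pathway genes other than the 9, DESeq2, no filter and sex as a covariate each called 1 lower (Phkb). With 1 library left out, 0 to 1 were called higher (Hk2 without WT replicate 2) and 0 to 3 lower: Pgm2l1 without WT replicate 1, and Pgm2, Phkb and Prkaa1 without WT replicate 2. The cause of these differences was not tested. No paired analysis by replicate number was possible because the labels give no replicate numbers shared between genotypes; the sex covariate, read from the data, matches 1 KO and 1 WT library in each sex. Depth limits Ppp1r3c and Ppp1r3d, with at most 84 counts a library.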

Other observations

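Glucose 6-phosphate, from which glycogen is built, is made by hexokinases and handled by 8 tested genes of the list of 11, of which edgeR called 0, with 0 at an unadjusted p under 0.05 and 0 called by DESeq2. Over all tested genes edgeR called 3.61%, 14.8% were higher and 15.7% lower at an unadjusted p under 0.05, and DESeq2 called 6.94% higher and 7.11% lower, so 0 of 8 is no result about the list. Gpi1, which converts glucose 6-phosphate to fructose 6-phosphate, had 427 and 434 CPM in KO and 409 and 461 CPM in WT (log2 fold change -0.01, edgeR adjusted p = 0.954). Hk2, the insulin-responsive hexokinase, had 260 and 282 CPM in KO and 134 and 265 CPM in WT (log2 fold change 0.44, adjusted p = 0.432). WT replicate 1 alone stood apart, and without WT replicate 2 Hk2 was called higher at 1.05. Hk1 had 142 and 121 CPM in KO and 87.4 and 138 CPM in WT (0.22, adjusted p = 0.588). G6pc, the catalytic subunit of glucose 6-phosphatase in liver, did not pass the filter on low counts.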
